A study of Mus musculus with 6 samples.

Results

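The clustered protocadherins are cell surface adhesion proteins of the cadherin superfamily whose genes lie side by side in the alpha, beta and gamma clusters. Members were taken by symbol from the deposited expression table, as every row named Pcdha, Pcdhac, Pcdhb, Pcdhga, Pcdhgb or Pcdhgc followed by a number. This gave 58 of the 35274 genes in the table. The alpha cluster had 14 members, the beta cluster 22 and the gamma cluster 22. The gamma cluster divides into 12 gamma-A, 7 gamma-B and 3 gamma-C genes. With Pcdhac1 and Pcdhac2 of the alpha cluster, the gamma-C genes make up the 5 C-type members.

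As background, a neuron switches on a small and largely random set of alpha, beta and gamma genes, each from its own promoter, while most C-type genes are used more uniformly across cells. Promoter choice depends on DNA methylation, antisense transcription and loops held by CTCF and cohesin between a promoter and distant enhancers. An alpha or gamma transcript joins its own variable exon to constant exons shared by the whole cluster, so these proteins have a common cytoplasmic end. A beta gene has no constant exons and encodes its protein in a single exon. The proteins bind copies of themselves on other membranes, which lets branches of a single neuron recognise and avoid each other, and they act in dendrite growth, axon spacing and the survival of some neurons.

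RNA was measured by poly(A) RNA sequencing of dentate neuroepithelium, the ventricular wall tissue of the hippocampus that forms the dentate gyrus, from mice labelled embryonic day 14. The wild type (WT) carried no floxed Sox11 allele, the heterozygous floxed genotype (HTZ, SOX11f/+) carried 1 and the homozygous floxed genotype (HOMO, SOX11f/f) carried 2, with 2 libraries per genotype. Sox11 encodes a transcription factor active in newborn neurons, and the floxed genotypes are labelled haplodeficient (SOX11f/+) and homodeficient (SOX11f/f). The sources used here name no Cre driver. They do not state whether the libraries of a genotype came from different embryos, so the spread behind each p-value may be technical.

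Values are TPM, transcript abundance corrected for length and scaled to a fixed total per library, and the read depth behind them is unknown. Between 18722 and 19408 genes per library were above 0 TPM. Sox11 stood at 192 and 130.2 TPM in WT, at 56.1 and 50.1 in HTZ, and at 5.23 and 5.06 in HOMO. The 12 radial glia markers were above 0 in every library and summed to between 3646 and 4484 TPM. Genes typical of mature brain were also present in every library, with Gfap between 268 and 576 TPM and Camk2a between 121 and 496 TPM. The choroid plexus gene Ttr stood at 11259 TPM in HTZ replicate 1 and at 6421 TPM in HOMO replicate 1, against 2.04 to 184 TPM in the others. Values without these 2 libraries are given where they bear on a result.

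The 3 clusters follow each other on the plus strand of mouse chromosome 18 (GRCm38, GENCODE vM21). The alpha cluster spans 36930184 to 37187661 (257 kb), the beta cluster 37264938 to 37524479 (260 kb) and the gamma cluster 37661793 to 37841873 (180 kb). Constant exons make single alpha and gamma genes hard to separate: a median of 53.4% of an alpha gene's exon bases and 44.7% of a gamma gene's were shared with other members, against 0% for beta genes, of which 18 of 22 had a single exon. How reads in shared exons were divided among genes is not given in the sources used here, so the level of a single alpha or gamma gene is uncertain, and sums over a cluster depend less on that division. No row was named Pcdha10, and 2 rows were named Pcdha11. The row ENSMUSG00000007440.10 starts at 37005203, where RefSeq on GRCm38.p6 places Pcdha10, and the row ENSMUSG00000102206.5 is the other. Pcdhgb8 is annotated as a polymorphic pseudogene.

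All 58 members were above 0 TPM in every library, and 56 reached the mean level of 1 TPM that was required for testing. Of the remaining members, Pcdha8 lay between 0.12 and 0.64 TPM. Pcdhb1, which lacks the conserved promoter element of most clustered protocadherins, lay between 0.03 and 0.22 TPM. The gamma cluster was the most abundant, holding 66.3% to 73.7% of the TPM of all members. Its C-type genes Pcdhgc3 and Pcdhgc4, at means over all libraries of 145 and 63.7 TPM, stood far above every other member. Pcdhac2 followed at 20.2 TPM, and no other member exceeded the 18.0 TPM of Pcdhga11.

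**Figure D1:**
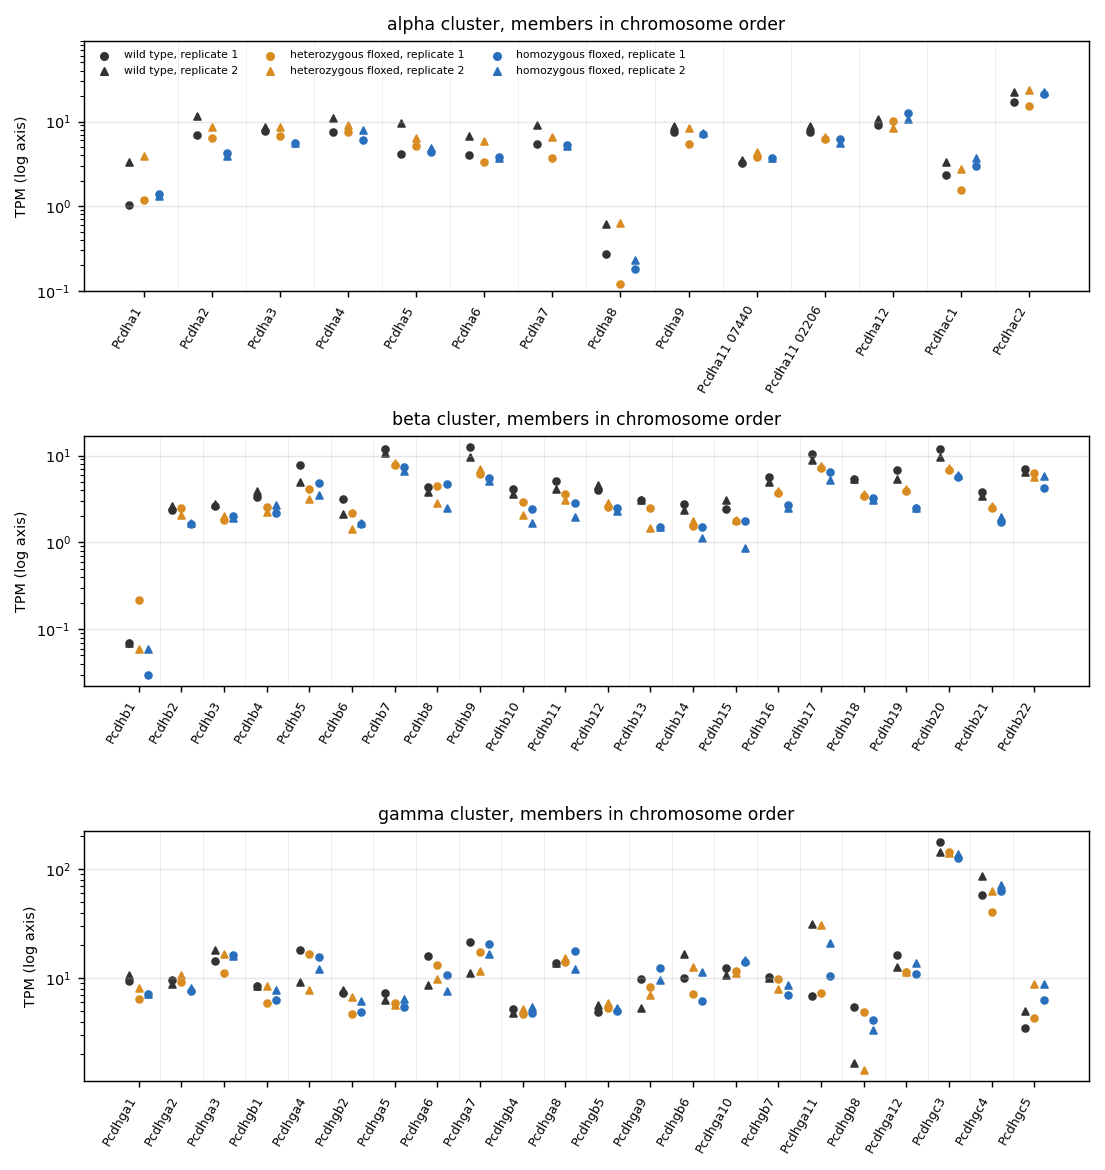
TPM of each of the 58 members in each library on a log axis, in chromosome order within the alpha, beta and gamma clusters; circles are replicate 1 and triangles replicate 2, and the digits after the Pcdha11 rows end their Ensembl identifiers. WT points lie above HOMO points for 20 of the 21 beta members tested, beside 30.7% of all genes tested. This is so for 6 of 13 alpha and 6 of 22 gamma members tested, and the reverse for 1 and 2.

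The beta cluster was the one whose summed level differed most between genotypes as a share of its WT level. Its summed level was 120.4 and 105 TPM in WT, 80.5 and 76.6 TPM in HTZ, and 68.8 and 62.1 TPM in HOMO, so no genotype overlapped another. The means were 113 ± 10.7 TPM in WT, 78.5 ± 2.76 TPM in HTZ and 65.4 ± 4.72 TPM in HOMO (SD, n = 2 each). HTZ stood at 69.6% and HOMO at 58.0% of WT, and HOMO at 83.3% of HTZ. A sum over chosen members was given no test, and an exact test of 2 against 2 libraries cannot go below p = 0.33.

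The summed alpha level was 84.1 and 118 TPM in WT, 76.1 and 104 TPM in HTZ, and 84.7 and 85.7 TPM in HOMO. Its genotypes overlapped, with means of 101 ± 23.9, 89.9 ± 19.4 and 85.2 ± 0.693 TPM (SD, n = 2 each). Without C-type members the alpha cluster summed to 64.7 and 92.15 TPM in WT, 59.5 and 77.35 in HTZ, and 60.8 and 59.8 in HOMO. On that sum HOMO lay below WT without overlap, and HTZ overlapped both. The summed gamma level was 445 and 438 TPM in WT, 364 and 406 TPM in HTZ, and 383 and 414 TPM in HOMO. Both floxed genotypes lay below both WT libraries, at 87.3% and 90.2% of WT, and overlapped each other. In TPM, the gamma means of 441 in WT and 385 in HTZ lay further apart than the beta means of those genotypes did. The beta level as a ratio to the gamma level was 0.271 and 0.240 in WT, 0.221 and 0.189 in HTZ, and 0.180 and 0.150 in HOMO, which needs no scaling between libraries and again ordered the genotypes without overlap. As a share of all members, beta genes made up 18.6% and 15.9% in WT, 15.4% and 13.1% in HTZ, and 12.8% and 11.1% in HOMO.

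**Figure D2:**
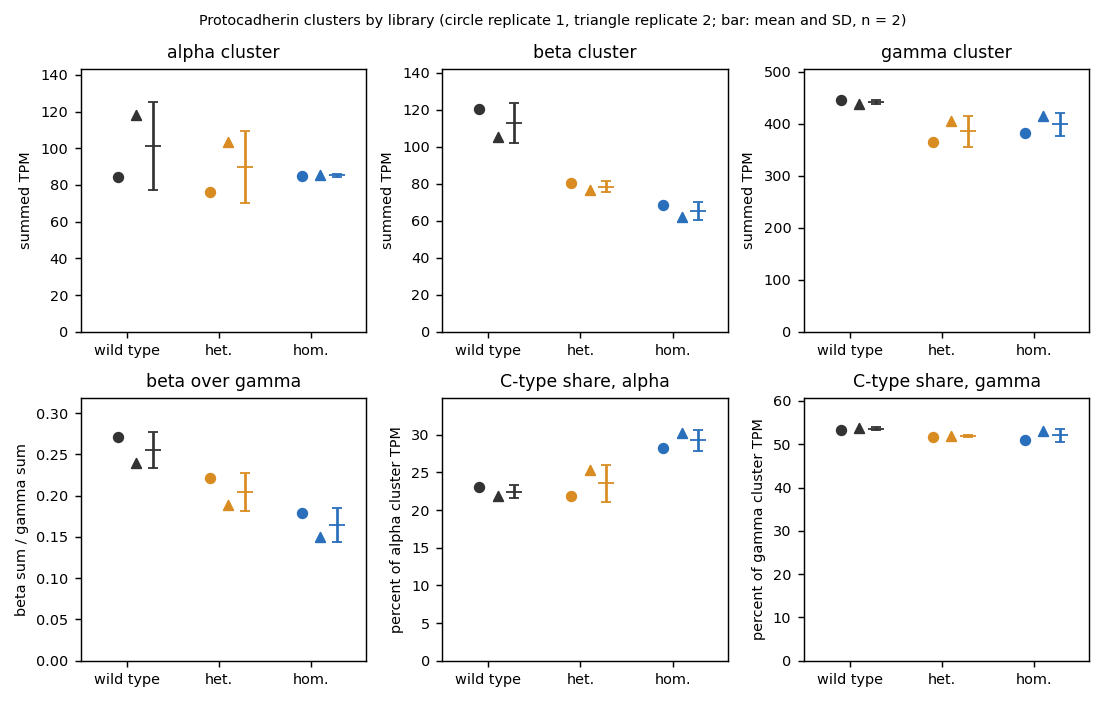
Summed TPM of each cluster (top), the ratio of the beta to the gamma sum, and the share of C-type members in the alpha and gamma clusters (bottom) by genotype, with a point per library and bars for the mean and SD of 2 libraries. The beta sum and the ratio of beta to gamma step down from WT to HTZ to HOMO with no overlap, while the alpha sums overlap.

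In HOMO against WT, every one of the 21 beta genes tested had a lower mean in HOMO, yet none passed limma's test at an adjusted p of 0.05. Over all 14518 genes tested, 0.0413% passed (6 genes), a number that moved to 3 without WT replicate 1 and to 391 and 397 without HTZ replicate 1 and HTZ replicate 2. No member passed under any of these settings. The beta differences were taken in log2(TPM + 1), on which weakly expressed genes appear to differ less than they do. They ranged from -1.03 to -0.18 with a median of -0.63, beside a median of -0.04 over all genes tested. The libraries did not overlap for 20 of the 21 beta genes, HOMO being lower, which was so for 30.7% of all genes tested. At an unadjusted p of 0.05 there were 14 lower beta genes and none higher, where all genes gave 9.8% lower and 8.35% higher, and 55.2% of all genes had a log2 difference below 0. That number was 6 without HOMO replicate 2, 7 without WT replicate 1 and 9 without HOMO replicate 1. The median stayed between -0.80 and -0.54 under every alternative, including -0.68 without the 2 libraries rich in Ttr, and 20 or 21 of the 21 beta genes were below 0 with any single library left out.

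Pcdhb19 (ENSMUSG00000043313.6) had the largest beta difference. Its level was 6.90 and 5.36 TPM in WT, 3.91 and 4.15 TPM in HTZ, and 2.49 and 2.46 TPM in HOMO. The 3 genotypes were thus in separate ranges, and the HOMO difference from WT was -1.03 (SE 0.21, limma adjusted p = 0.101). Pcdhb9 (ENSMUSG00000051242.1) stood at 12.4 and 9.70 TPM in WT, 6.13 and 6.97 TPM in HTZ, and 5.58 and 5.03 TPM in HOMO. It was the most abundant beta gene in WT replicate 1 and again had 3 separate ranges, with a HOMO difference of -0.93 (SE 0.19, limma adjusted p = 0.105). Pcdhb20 stood at 11.7 and 9.51 TPM in WT, 6.87 and 7.14 TPM in HTZ, and 5.60 and 5.90 TPM in HOMO. Its genotypes were also separate, with a HOMO difference of -0.78 (SE 0.18, limma adjusted p = 0.119). Pcdhb16 stood at 5.62 and 4.90 TPM in WT, 3.68 and 3.87 TPM in HTZ, and 2.70 and 2.46 TPM in HOMO, a difference of -0.80 (SE 0.20, limma adjusted p = 0.131).

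Pcdhb7, the beta gene with the highest mean over all libraries at 8.79 TPM, showed the same order. Its level was 11.9 and 10.7 TPM in WT, 7.82 and 8.29 TPM in HTZ, and 7.32 and 6.70 TPM in HOMO, and its HOMO difference was -0.62 (SE 0.16, limma adjusted p = 0.145). Pcdhb17 stood at 10.4 and 8.99 TPM in WT, 7.11 and 7.56 TPM in HTZ, and 6.47 and 5.27 TPM in HOMO. Pcdhb18 stood at 5.43 and 5.34 TPM in WT, 3.39 and 3.61 TPM in HTZ, and 3.20 and 3.08 TPM in HOMO. Both were again without overlap between any genotypes. Pcdhb8 was the exception among the beta genes: its level was 4.31 and 3.76 TPM in WT, 4.49 and 2.85 TPM in HTZ, and 4.64 and 2.5 TPM in HOMO, where the replicates of a floxed genotype differed more than the genotypes did. Pcdhb22, the last gene of the cluster, stood at 7.02 and 6.43 TPM in WT, 6.30 and 5.60 TPM in HTZ, and 4.22 and 5.79 TPM in HOMO. The weakly expressed Pcdhb13, Pcdhb14 and Pcdhb15 had WT means of 3.10, 2.56 and 2.75 TPM and HOMO means of 1.5, 1.31 and 1.31 TPM.

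HTZ libraries, which were set against the same WT libraries, showed the beta difference at a smaller size. All 21 beta genes tested had lower means in HTZ (59.8% of all genes did), with a median log2 difference of -0.43 beside -0.06 over all genes tested and a range of -0.67 to -0.10. None passed limma's test, as 0.0344% of all genes did (5 genes, or 3 without either WT library, 25 without HTZ replicate 1 and 397 without HTZ replicate 2). Libraries did not overlap for 18 of the 21, HTZ being lower, against 28.9% of all genes tested. The exceptions were Pcdhb2, Pcdhb6 and Pcdhb8. At an unadjusted p of 0.05 there were 5 lower beta genes and none higher, where all genes gave 7.63% lower and 6.42% higher. The number of lower beta genes was 0 without WT replicate 1 and 1 or 2 without HTZ replicate 2, HTZ replicate 1 or either HOMO library. Pcdhb9 had the smallest p among members, at -0.67 (SE 0.19, limma adjusted p = 0.282). It was followed by Pcdhb20 at -0.53, Pcdhb7 at -0.44 and Pcdhb18 at -0.51, with limma adjusted p-values of 0.312, 0.325 and 0.331. Without the 2 libraries rich in Ttr the median beta difference was -0.44.

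HOMO and HTZ differed less from each other. The median beta difference was -0.22 with 18 of 21 genes below 0 (45.9% of all genes were), and 12 of 21 had HOMO libraries below HTZ libraries without overlap, against 13.7% of all genes tested. Without HOMO replicate 2 the median was -0.12, and without the other libraries in turn it lay between -0.27 and -0.21. No beta gene had HOMO libraries above HTZ libraries without overlap, as 15.3% of all genes did. None passed limma's test (0.0138% of all genes did), and only Pcdhb19 among beta genes was under an unadjusted p of 0.05, at -0.53 (SE 0.21, limma adjusted p = 1). Over all genes, 0.902% were lower and 1.14% higher at that threshold. Means were ordered from WT down through HTZ to HOMO for 18 of 21 beta genes, as for 27.3% of all genes tested. All 3 genotypes were in separate ranges in that order for 11 of 21 beta genes, as for 5.68% of all genes tested. Among alpha genes this was so for 0 of 13 and among gamma genes for 1 of 22.

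**Figure D3:**
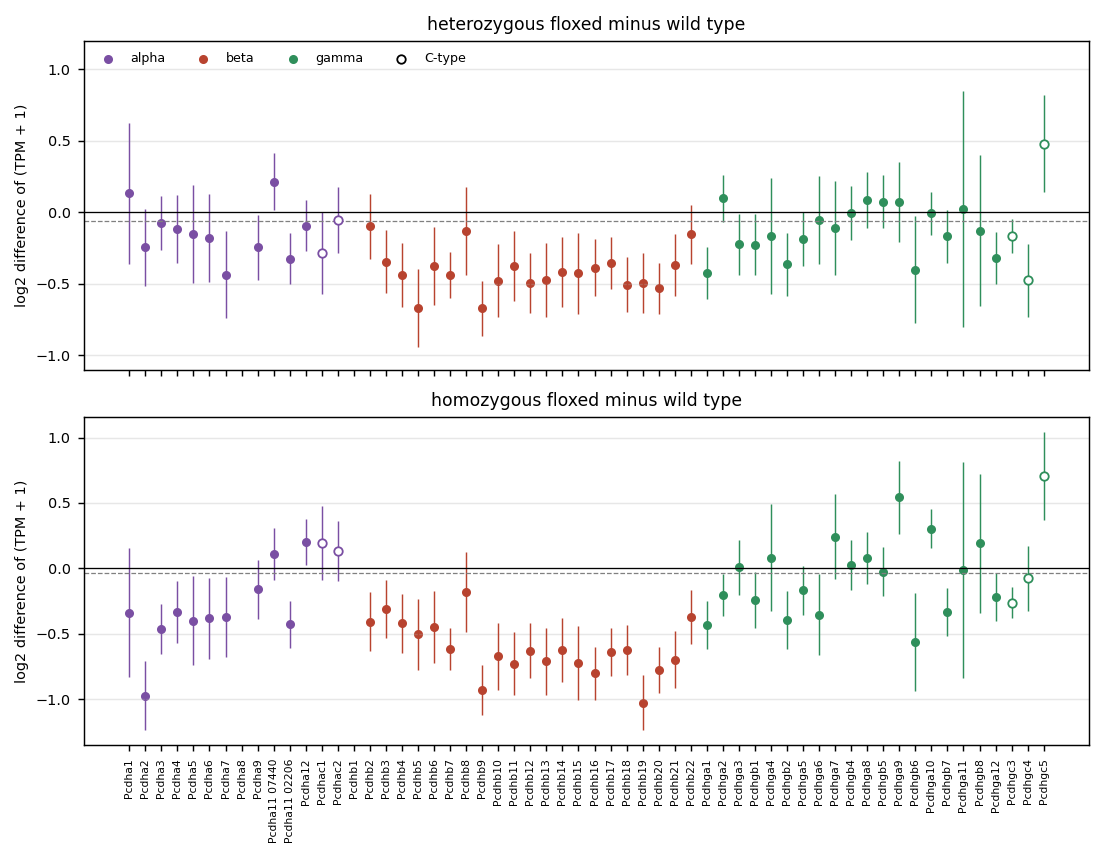
Difference in log2(TPM + 1) of HTZ from WT (top) and HOMO from WT (bottom) for the 56 members tested, with limma SE as bars; both panels share the WT libraries, open circles are C-type members, and the dashed line is the median of all genes tested. Beta genes lie below 0 in both panels, with medians of -0.43 and -0.63, and the others spread to both sides.

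The evenness of the beta cluster was similar in all libraries while its sum differed. The effective number of beta genes, which is the number of equally abundant genes that would give the same evenness, was 18.2 and 18.8 in WT, 19.0 and 18.1 in HTZ, and 18.4 and 18.1 in HOMO. Along the chromosome, HOMO differences from WT were mostly larger towards the end of the cluster nearest the gamma genes. The median was -0.48 over the 10 genes from Pcdhb2 to Pcdhb11 and -0.70 over the 11 from Pcdhb12 to Pcdhb22. Pcdhb22, the gene nearest the gamma cluster, was an exception at -0.37. Spearman's rho between order and difference was -0.51 across 21 beta genes, which share their libraries and are not replicates, and the corresponding values were 0.68 across 13 alpha and 0.25 across 22 gamma genes. The difference bore a weaker relation to the mean level of a beta gene, with a rho of -0.23. Position was not examined in the same way for HTZ against WT. There the largest beta differences, those of Pcdhb9 and Pcdhb5 (-0.67 each), lay among the genes from Pcdhb2 to Pcdhb11.

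Markers of cell types differed alongside the beta genes in these bulk samples, in which fewer cells of a type and less RNA per cell cannot be told apart. The 10 newborn neuron and granule lineage markers, none of them at 0 in any library, summed to 2891 and 2330 TPM in WT, 1850.3 and 1893 TPM in HTZ, and 1768 and 1628 TPM in HOMO. In HOMO against WT, 9 of the 10 were lower in mean, with a median log2 difference of -0.83, and none passed limma's test (smallest adjusted p = 0.061). The beta sum divided by that marker sum was 0.0417 and 0.0452 in WT, 0.0435 and 0.0405 in HTZ, and 0.0389 and 0.0381 in HOMO. WT and HTZ overlapped on this ratio, and HOMO lay below both. Its means in HTZ and HOMO were 96.7% and 88.7% of WT. Over cycling cell markers the beta ratio stood at 82.5% and 80.2% of WT. Over general neuronal markers it stood at 80.4% and 70.7%, and over radial glia markers at 59.8% and 54.3%. HOMO lay below WT without overlap on each of these ratios, and HTZ on those to cycling cell and radial glia markers.

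The 14 general neuronal markers, also above 0 throughout, summed to 5484 and 6826 TPM in WT, 4805 and 5748 TPM in HTZ, and 4936 and 4970 TPM in HOMO, so WT and HTZ overlapped while HOMO lay below WT. Cycling cell markers summed to 680 and 490.4 TPM in WT, 542 and 439 TPM in HTZ, and 405 and 430.2 TPM in HOMO, with all 10 lower in mean in HOMO. Intermediate progenitor markers summed to 345 and 252 TPM in WT, 211 and 203 TPM in HTZ, and 180 and 217 TPM in HOMO, so both floxed genotypes lay below WT. Of them 5 were tested, all lower in mean in HOMO with a median log2 difference of -0.53 (smallest limma adjusted p = 0.119). Cajal-Retzius markers summed to 738 and 382.3 TPM in WT, 308 and 309 TPM in HTZ, and 282 and 382.5 TPM in HOMO, and all 6 were lower in mean in HOMO, with a median of -0.59 (smallest adjusted p = 0.219). Radial glia sums of both floxed genotypes lay above WT, where the sums were 3736 and 3646 TPM. The 12 markers themselves were split. In HOMO 7 were higher and 5 lower in mean than in WT (median log2 difference 0.15), and in HTZ 6 were higher and 6 lower (median 0.05).

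Astrocyte markers went the other way: their sums were 1629 and 1858 TPM in WT, 2954 and 2638 TPM in HTZ, and 3049 and 3566 TPM in HOMO, and all 9 were higher in mean in HOMO. Microglia markers summed to 195 and 234 TPM in WT and to between 312 and 468 TPM in the floxed genotypes, and oligodendrocyte lineage markers to 170.1 and 257 TPM in WT and to between 288 and 404 TPM. Ependymal markers summed to 10.7 and 9 TPM in WT and to between 145 and 493 TPM in the floxed genotypes, and of their 10 tested genes Ccdc153 and Tmem212, both of motile cilia, rose in HOMO (limma adjusted p = 0.00178 and 0.00647). Of the 9 mature forebrain neuron markers, 8 were higher in mean in HOMO, with a median of 0.33 (smallest adjusted p = 0.246), though their sums of 1346 and 2138 TPM in WT overlapped the 2093 and 2524 TPM in HOMO. Endothelial and mural, meningeal, GABAergic and red blood cell marker sums also overlapped between WT and each floxed genotype. The part of any of these cell types in the beta result was not tested.

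**Figure D4:**
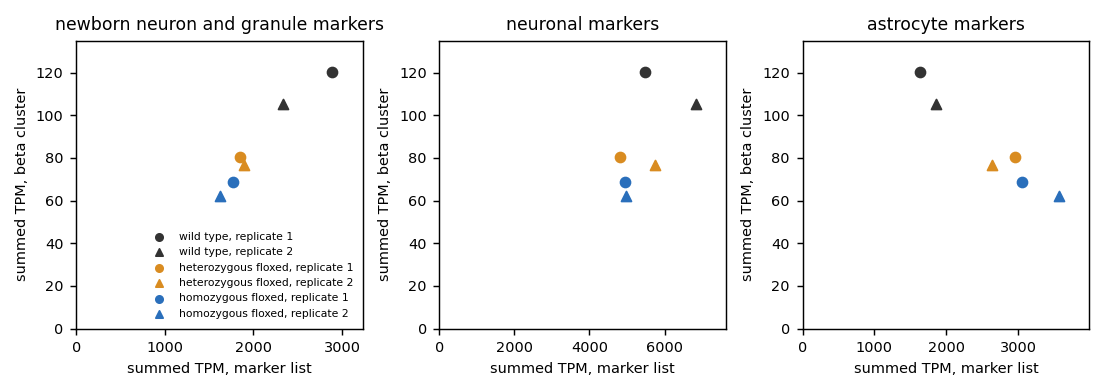
Summed TPM of the beta cluster in each library against the summed TPM of newborn neuron and granule lineage markers, neuronal markers and astrocyte markers; colours are genotypes and symbols replicates. The WT libraries hold the highest beta and newborn neuron sums and the lowest astrocyte sums of the 6 libraries.

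The alpha cluster, most of whose proteins need carrier protocadherins to reach the cell surface (Pcdhac2 does not), had no member past the threshold in any comparison. In HOMO against WT, 9 of the 13 alpha genes tested were lower in mean, with a median log2 difference of -0.34. That median was -0.06 without WT replicate 2 and -0.53 without WT replicate 1, so its size depended on which WT library was used. HOMO libraries lay below WT libraries without overlap for 6 of the 13 alpha genes and above them for 1, where 30.7% of all genes tested were below and 23.6% above. In HTZ against WT, 11 of 13 were lower with a median of -0.15, which was 0.09 without WT replicate 2 and 0.00 without HTZ replicate 1. Without WT replicate 2 the summed alpha level of HOMO was no longer below that of WT, at a log2 ratio of 0.02.

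Pcdha2 had the largest alpha difference. Its level was 6.93 and 11.6 TPM in WT, 6.44 and 8.54 TPM in HTZ, and 4.30 and 3.88 TPM in HOMO. HOMO lay below both other genotypes, at -0.97 from WT (SE 0.27, limma adjusted p = 0.154) and at -0.73 from HTZ (SE 0.27, unadjusted p = 0.0307, adjusted p = 1). Pcdha3, next to it, stood at 7.66 and 8.55 TPM in WT, 6.69 and 8.71 TPM in HTZ, and 5.65 and 5.56 TPM in HOMO. The most abundant alpha genes apart from the C-type ones did not show this: Pcdha12 stood at 9.21 and 10.7 TPM in WT, 10.1 and 8.49 TPM in HTZ, and 12.6 and 10.6 TPM in HOMO. Pcdha4 stood at 7.52 and 10.9 TPM in WT, 7.52 and 9.11 TPM in HTZ, and 6.05 and 8.05 TPM in HOMO. Of the 150-base stretches of its transcripts, 86.8% also occur in another gene, the highest share of any member, but 48.6% in another member. The medians over alpha genes were 53.7% and 52.6%. The genes outside the members that share such stretches stood at no more than 0.22 TPM in any library. Pcdha9 stood at 7.61 and 8.74 TPM in WT, 5.38 and 8.35 TPM in HTZ, and 7.15 and 7.24 TPM in HOMO. For Pcdha12 and Pcdha4 the libraries of HOMO and WT overlapped, and for Pcdha9 HOMO lay below WT by less than the distance between the WT libraries. The Pcdha11 rows differed from each other, since ENSMUSG00000102206.5 stood at 7.56 and 8.90 TPM in WT and at 6.19 and 5.52 TPM in HOMO, while ENSMUSG00000007440.10 stood at 3.23 and 3.47 TPM in WT and at 3.73 and 3.66 TPM in HOMO.

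In the gamma-A and gamma-B families no member passed the threshold either. In HOMO against WT, 6 of the 12 gamma-A genes were lower in mean, with a median log2 difference of -0.0037, which turned to 0.03 when libraries were rescaled by a trimmed mean (TMM). It was -0.23 without WT replicate 2 and -0.06 without either HOMO library. Of the 7 gamma-B genes, 5 were lower, with a median of -0.24, which was -0.10 without HOMO replicate 1 and -0.39 without HOMO replicate 2. Gamma-A genes summed to 156 and 147 TPM in WT, 133 and 147 TPM in HTZ, and 149 and 146 TPM in HOMO. Gamma-B genes summed to 51.5 and 55.0 TPM in WT, 42.7 and 48.3 TPM in HTZ, and 38.3 and 48.2 TPM in HOMO. Gamma-B sums of both floxed genotypes thus lay below WT without overlap, while gamma-A sums of HOMO and WT overlapped. Over the whole gamma cluster, the median difference was -0.15 in HTZ and -0.05 in HOMO against WT, and the latter was -0.01 after TMM rescaling. Both depended on single libraries. The HOMO median was -0.23 without WT replicate 2, -0.16 without HOMO replicate 2 and -0.09 without WT replicate 1. The HTZ median was -0.02 without WT replicate 1, -0.05 without HTZ replicate 2 and -0.09 without HTZ replicate 1.

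Among gamma-A and gamma-B genes, Pcdhga10 had the smallest p in HOMO against HTZ. Its level was 12.4 and 10.6 TPM in WT, 11.7 and 11.2 TPM in HTZ, and 14.2 and 14.6 TPM in HOMO. HOMO was above the other genotypes without overlap, by 0.30 from WT (SE 0.15, limma adjusted p = 0.330) and by 0.31 from HTZ (adjusted p = 1). Pcdhgb7 stood at 10.2 and 10.03 TPM in WT, 9.85 and 7.99 TPM in HTZ, and 7 and 8.68 TPM in HOMO. Pcdhgb1 stood at 8.44 and 8.52 TPM in WT, 5.97 and 8.42 TPM in HTZ, and 6.25 and 7.85 TPM in HOMO. Both lay below WT in the floxed genotypes, with HOMO differences of -0.33 (adjusted p = 0.373) and -0.24 (adjusted p = 0.557) by limma. Pcdhga3 stood at 14.4 and 18.2 TPM in WT, 11.2 and 16.7 TPM in HTZ, and 16.4 and 16.1 TPM in HOMO, with overlap throughout. Pcdhga1, the first gamma gene, stood at 9.40 and 10.8 TPM in WT, 6.41 and 8.14 TPM in HTZ, and 7.19 and 7.20 TPM in HOMO, below WT in both floxed genotypes.

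The C-type members did not share a direction. Pcdhgc3, known to promote dendrite branching in cortical neurons, was the most abundant member, at 176 and 144 TPM in WT, 144 and 139.8 TPM in HTZ, and 126 and 139 TPM in HOMO. Its HOMO libraries lay below both WT libraries, at -0.26 (SE 0.12, limma adjusted p = 0.303). Pcdhgc4, which neurons need for survival, stood at 57.5 and 87.0 TPM in WT, 40.8 and 62.5 TPM in HTZ, and 62.6 and 71.7 TPM in HOMO, where genotypes overlapped. Pcdhgc5, which associates with GABA receptors at synapses, stood at 3.51 and 5.00 TPM in WT, 4.33 and 8.88 TPM in HTZ, and 6.30 and 8.88 TPM in HOMO. It was the C-type gene with HOMO above WT without overlap, at 0.71 (SE 0.34, limma adjusted p = 0.322), and HTZ overlapped both other genotypes.

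Pcdhac2, required for the spacing of serotonergic axons, stood at 17.1 and 22.5 TPM in WT, 15.1 and 23.5 TPM in HTZ, and 21 and 22.2 TPM in HOMO. Pcdhac1 stood at 2.32 and 3.30 TPM in WT, 1.55 and 2.76 TPM in HTZ, and 2.96 and 3.72 TPM in HOMO. Genotypes overlapped for both, with HOMO differences from WT of 0.13 (adjusted p = 0.778) and 0.19 (adjusted p = 0.734) by limma. The serotonergic marker genes summed to between 0.58 and 1.82 TPM in the 6 libraries. Over the 5 C-type members the median difference in HOMO was 0.13, with 2 below 0 and 3 above, and it was -0.06 without WT replicate 1. In HTZ 4 were below 0, with a median of -0.17, which was -0.0070 without HTZ replicate 1.

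The C-type share of the alpha cluster was 23.1% and 21.9% in WT, 21.8% and 25.3% in HTZ, and 28.3% and 30.2% in HOMO. HOMO thus stood above the other genotypes without overlap, and most of this share was Pcdhac2, at 19.1% to 22.7% of the alpha cluster in WT and HTZ and at 24.8% and 25.9% in HOMO. In the gamma cluster the C-type share differed less, at 53.4% and 53.9% in WT, 51.8% and 52.0% in HTZ, and 51.0% and 53.2% in HOMO. Both floxed genotypes lay below WT without overlap, with mean shares at 96.8% and 97.1% of that in WT. Within the gamma cluster, the ratio of Pcdhgc4 to Pcdhgc3 ranged from 0.284 to 0.604 over the 6 libraries. It was lower in replicate 1 of each genotype, at 0.326, 0.284 and 0.495, than in replicate 2, at 0.604, 0.447 and 0.514. The effective number of gamma genes was 10.6 and 10.8 in WT, 11 and 11.4 in HTZ, and 11.7 and 11.5 in HOMO, and that of alpha genes 11.1 and 11.7, 11 and 11.5, and 10.5 and 10.5. These shares and numbers do not depend on the scaling of a library, and were given no test.

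Single alpha and gamma genes varied more between libraries of a genotype than beta genes did. The median ratio of the higher to the lower library of a genotype was 1.15 over beta genes, 1.21 over alpha genes and 1.24 over gamma genes, and it reached 2.03, 3.31 and 4.6. Pcdhga11 was the widest: it stood at 6.87 and 31.6 TPM in WT, 7.30 and 31.1 TPM in HTZ, and 10.4 and 21.1 TPM in HOMO. Pcdhgb6 stood at 10.1 and 16.6 TPM in WT, 7.22 and 12.6 TPM in HTZ, and 6.20 and 11.4 TPM in HOMO. These were the only members with a ratio of at least 1.5 in all 3 genotypes, 2 of 56 members (3.57%) beside 2.5% of all genes tested.

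Other genes split in the opposite direction. Pcdhga4 stood at 18.2 and 9.25 TPM in WT, 16.8 and 7.78 TPM in HTZ, and 15.7 and 12.2 TPM in HOMO. Pcdhga7 stood at 21.6 and 11.04 TPM in WT, 17.5 and 11.7 TPM in HTZ, and 20.6 and 16.6 TPM in HOMO. Pcdhgb8 stood at 5.39 and 1.68 TPM in WT, 4.88 and 1.44 TPM in HTZ, and 4.14 and 3.35 TPM in HOMO. For these 3 genes replicate 1 was the higher library in every genotype, while Pcdha1 had replicate 2 higher in WT (1.04 and 3.37 TPM) and HTZ (1.18 and 3.91 TPM) and level values in HOMO (1.39 and 1.33 TPM). These members were chosen for the split after their values were seen, and the replicate numbers carry no stated batch.

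**Figure D5:**
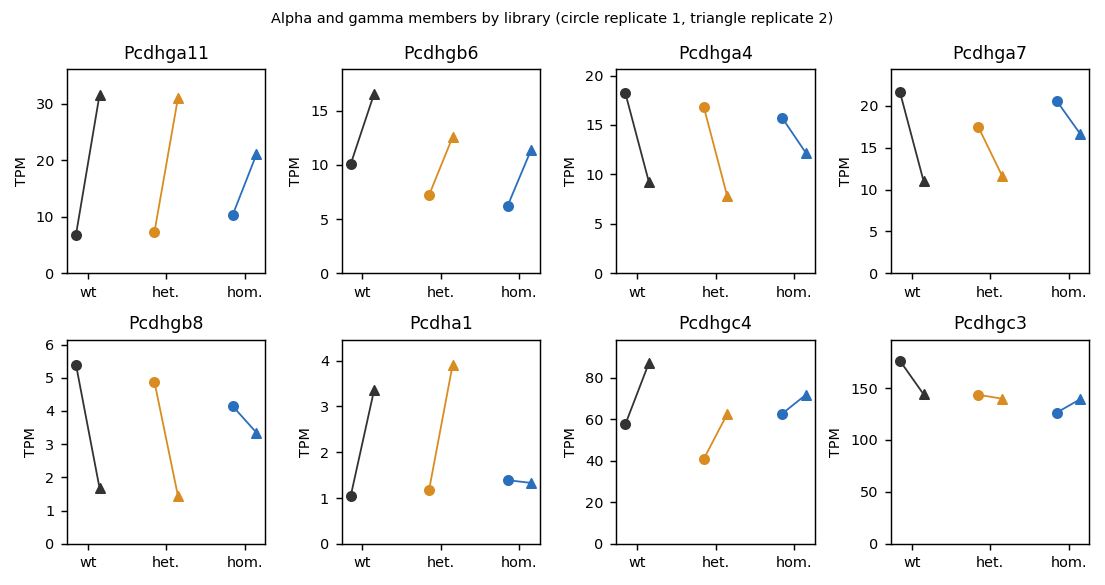
TPM of 8 alpha and gamma members in each library, with a line joining the libraries of a genotype (circle replicate 1, triangle replicate 2; wt, het. and hom. are WT, HTZ and HOMO). Pcdhga11 and Pcdhgb6 are higher in replicate 2 of every genotype, and Pcdhga4, Pcdhga7 and Pcdhgb8 are higher in replicate 1.

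Among 28 regulators of protocadherin promoter choice (CTCF, cohesin, DNA and histone methylation factors and others), 26 were lower in mean in HOMO than in WT (55.2% of all genes tested were), with a median log2 difference of -0.25, or -0.21 after TMM rescaling. None passed limma's test, and 6 were lower and none higher at an unadjusted p of 0.05, where all genes gave 9.8% lower and 8.35% higher. Ehmt1, a histone H3 methyltransferase, stood at 58.1 and 50.7 TPM in WT, 45.5 and 41.03 TPM in HTZ, and 42.7 and 40.0 TPM in HOMO (-0.39, limma adjusted p = 0.177). Dnmt1, the maintenance DNA methyltransferase, stood at 64.6 and 52.3 TPM in WT, 47.7 and 46.0 TPM in HTZ, and 44.9 and 42.0 TPM in HOMO (-0.41, adjusted p = 0.178). Pds5a, a cohesin partner, had a HOMO difference of -0.35 (adjusted p = 0.222). Ctcf itself stood at 96.2 and 73.2 TPM in WT, 75.4 and 72.03 TPM in HTZ, and 71.9 and 66.4 TPM in HOMO, where HTZ overlapped WT (named outside the rule, for its role).

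Of 32 partners in protocadherin signalling and processing, 21 were lower in HOMO, with a median of -0.06, and none passed limma's test. Those with the smallest p were Marcks, a membrane and actin protein of dendrites, at -0.35 (limma adjusted p = 0.142), Sh3kbp1, an endocytic adaptor, at -0.60 (adjusted p = 0.149), and Ptk2, the focal adhesion kinase that protocadherin cytoplasmic domains inhibit, at -0.40 (adjusted p = 0.165). Ptk2 stood at 76.1 and 65.1 TPM in WT, 52.9 and 57.3 TPM in HTZ, and 50.9 and 55.2 TPM in HOMO, below WT in both floxed genotypes.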

How the data were processed

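Values were TPM, deposited by the authors as a single table of 35274 genes with Ensembl identifiers and symbols; TPM keeps no read depth, so no counting error can be given. The design text, per the labels, gives TopHat 2.0.11 on mm10 and Cufflinks 2.2.1 with RefSeq transcripts, whereas the submitters' processing notes name FastQC and RSEM with builds mm10 and GRCm38. Strand use in counting is not given in the sources used here, and antisense transcripts of the clusters were not analysed here.

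The 14518 genes whose mean reached 1 TPM were tested as log2(TPM + 1) with limma 3.58.1 in R 4.3.3 (eBayes with trend). The fit used all 6 libraries with genotype as its only term, leaving 3 residual degrees of freedom, and p-values were adjusted by Benjamini-Hochberg over all genes, with a threshold of 0.05. Adjusted p-values come from limma, errors of TPM are SD and errors of log2 differences SE. The test was checked on data simulated with normally distributed noise from its own fitted spread. The criteria of that check concerned log2 effects larger than any member difference. Effects of the size seen in members were simulated too, but the share of them recovered is not reported here. No rate of detection is thus given for member differences. TMM factors were trimmed means of log ratios without count weights, a form chosen after values from a count-weighted form had been seen. Positions and shared exons came from GENCODE vM21. Alternatives were another pseudocount, other filters, TMM, no trend, a replicate block, 4 libraries only and each library left out.

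Named members were the C-type genes, the 3 most abundant of each family and the 4 with the smallest p per comparison; others are named as extremes or exceptions after their values were seen. From lists of regulators, partners, other cadherins and neighbours, up to 3 genes with the smallest p in HOMO against WT were named, besides Ctcf and Taf7. Members and lists were chosen with earlier results of these data known.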

Additional observations from a re-analysis of the deposited data

How the results depend on the processing

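No member passed the limma test in any comparison under any of the alternatives run. The number of all genes passing was 5, 6 and 2 in HTZ against WT, HOMO against WT and HOMO against HTZ, and moved to 49 and 149 in the first 2 with a pseudocount of 0.1, to 1, 3 and 1 with no filter, to 393 in HOMO against WT when only the libraries of both genotypes entered, to 1 in HOMO against HTZ without a trend, and to 152, 491 and 12 when the 2 libraries rich in Ttr were left out. Leaving out a single library gave 3 to 397 genes in HTZ against WT, 3 to 397 in HOMO against WT and 1 to 5 in HOMO against HTZ. The replicate block gave 9 genes in HTZ against WT and 283 in HOMO against WT. Replicate numbers carry no stated batch and were not taken to pair the samples in the main fit. Deviations of same-numbered libraries correlated at 0.21 (WT and HTZ), -0.09 (WT and HOMO) and 0.35 (HTZ and HOMO) over all genes tested. Whether same-numbered libraries share a batch was not tested. Of the genes named by rule, the block moved only Ctnna2 past the threshold (limma adjusted p = 0.0464).

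The beta sum of both floxed genotypes stayed below WT under every alternative. With single libraries left out, the log2 ratio of the gamma sums ranged from -0.28 to -0.12 in HTZ against WT and from -0.028 to 0.13 in HOMO against HTZ, the extremes coming without HTZ replicate 2 and HTZ replicate 1. Taken as a median over the C-type members, ratios were 0.13 in HOMO against WT and 0.20 in HOMO against HTZ, above the ratios of sums of -0.16 and 0.07. Without Pcdhac2 the C-type share of the alpha cluster was 3.46% in WT, 2.99% in HTZ and 5.25% in HOMO, and without Pcdhgc3 that of the gamma cluster was 27.0%, 23.6% and 28.1%. Single HTZ libraries gave 21.8% to 25.3% for alpha, single HOMO libraries 51.0% to 53.2% for gamma, and without the Ttr libraries these were 25.3% and 53.2%. Single-gene HOMO differences from WT were followed under the alternatives for the genes named by rule, and not for the others named. Among the former, signs changed in 13 combinations of a gene and an alternative, all in the 5 genes that follow. With single libraries left out, Pcdhac2 ranged from -0.057 to 0.32, Pcdhga3 from -0.15 to 0.17, Pcdhga7 from -0.21 to 0.69, Pcdhga11 from -1.04 to 1.01 and Pcdhgc4 from -0.37 to 0.22. Without the Ttr libraries Pcdhga3 was at -0.0039, Pcdhga11 at 0.46 and Pcdhgc4 at 0.019, as without HOMO replicate 1 alone. Pcdhga11 was at 0.0041 with a pseudocount of 0.1 and at 0.022 with TMM. TMM rescaling moved the share of all tested genes lower than WT from 59.8% to 52.9% in HTZ and from 55.2% to 49.4% in HOMO; its form was chosen after the data were seen. The cause was not tested. Read depth is unknown, so it cannot be said which differences in low members were within counting error.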

Other observations

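Other cadherins differed between genotypes in their own ways. Of 10 non-clustered delta protocadherins, single genes outside the clusters that act in cell sorting and axon growth, 8 were higher in mean in HOMO than in WT, with a median log2 difference of 0.24, and none passed limma's test. Pcdh10 stood at 17.7 and 21.1 TPM in WT, 24.3 and 26.2 TPM in HTZ, and 25.7 and 24.8 TPM in HOMO (0.37 in HOMO, limma adjusted p = 0.229), above WT in both floxed genotypes. Pcdh17 differed by 0.51 (adjusted p = 0.288) and Pcdh9 by 0.32 (adjusted p = 0.521). Of 11 other non-clustered protocadherins and large cadherins tested, 8 were lower in HOMO, with a median of -0.27. Dchs1 and Fat4, a ligand and receptor pair of planar cell polarity, differed by -0.63 (adjusted p = 0.120) and -0.64 (adjusted p = 0.237). Dchs1 stood at 46.7 and 35.5 TPM in WT, 30.2 and 29.4 TPM in HTZ, and 26.1 and 25.8 TPM in HOMO, in 3 separate ranges.

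Of 21 classical cadherins and catenins tested, 14 were lower in HOMO, with a median of -0.12. Ctnna2, the neuronal alpha-catenin, stood at 121 and 111 TPM in WT, 94.6 and 92.02 TPM in HTZ, and 84.0 and 80.3 TPM in HOMO (-0.49, limma adjusted p = 0.088), again in separate ranges. Cdh2, the N-cadherin of neuroepithelial junctions, differed by -0.44 (adjusted p = 0.154). Of 16 genes beside or between the clusters on chromosome 18 that were tested, 10 were lower in HOMO, with a median of -0.14, or -0.10 after TMM rescaling. None passed limma's test, and those with the smallest p were Ik, a splicing factor, at -0.33 (limma adjusted p = 0.180), Zmat2, also of the spliceosome, at -0.28 (adjusted p = 0.287), and Diaph1, an actin-nucleating formin, at -0.27 (adjusted p = 0.292). Ik stood at 134.9 and 120.2 TPM in WT, 112 and 101.4 TPM in HTZ, and 100.9 and 101.9 TPM in HOMO, below WT in both floxed genotypes. Taf7, which lies between the beta and gamma clusters, stood at 11.5 and 9.79 TPM in WT, 10.3 and 8.95 TPM in HTZ, and 9.39 and 9.18 TPM in HOMO, a HOMO difference of -0.18 (adjusted p = 0.585); it was named outside the rule, for its position.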
